A study of Homo sapiens with 6 samples.

Results

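Epithelial cells hold each other through cadherins and tight junctions and stand on a basement membrane, and 41 genes of this machinery and of its mesenchymal counterpart were examined in HCCLM3-SR cells after knockdown of the circular RNA cDCBLD2. The 41 were taken by gene symbol from the 38637 genes of the deposited expression table, and all of them were found there. By role they comprised 4 cadherin and tight junction genes, 5 transcription factors of the epithelial-mesenchymal transition (EMT), 2 cytoskeletal genes, 6 integrin alpha and 6 integrin beta subunits, 5 laminin chains, 6 collagen chains, 4 matrix glycoproteins and 3 enzymes that modify collagen. HCCLM3-SR is a subline of HCCLM3, a human hepatocellular carcinoma line, made tolerant to the kinase inhibitor sorafenib by long culture in rising concentrations of the drug. In 3 libraries the cells had received si-cDCBLD2, which targets the circular RNA formed from exons of DCBLD2, and in the other 3 they had received siCTRL. All 6 libraries came from cells under 5 µM sorafenib, also the controls, and the siRNA was left on for 3 days, so no library shows these genes without the drug. The comparison asks which polyadenylated RNAs differ once cDCBLD2 is reduced, in 1 resistant line.

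In EMT, a programme active in embryos, wound repair and tumour spread, factors of the SNAI, ZEB and TWIST families repress E-cadherin and junction genes while vimentin, N-cadherin and fibronectin increase. Integrins are cell surface receptors made of 1 alpha and 1 beta subunit, and the pairing sets the ligand: ITGA5 with ITGB1 binds fibronectin, ITGA1 or ITGA2 with ITGB1 binds collagen, and ITGA3 with ITGB1 or ITGA6 with ITGB4 binds laminin. Laminins are trimers of an alpha, a beta and a gamma chain that assemble the basement membrane, and lysyl hydroxylases and lysyl oxidases prepare collagen for cross-linking.

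Expression was given in TPM, a transcript level corrected for both gene length and library size. Such values are shares of a fixed sum per library. Comparisons between genes and between libraries are therefore relative, and the GC-content dependence described below remains in them. Between 17492673 and 23064302 reads per library were recovered from the ratios of the TPM values, which are lower bounds. DCBLD2, the host gene, was at 58.1, 25.9 and 31.6 TPM after knockdown and at 71.5, 48.5 and 50.7 TPM in control cells (replicates 1, 2 and 3 in this order, as everywhere below), and the groups overlapped (log2 fold change -0.61, limma adjusted p = 0.253, or 0.0139 when libraries were compared within replicate numbers). A value per gene does not separate the circular RNA from the DCBLD2 mRNA, so it is no check of the knockdown. The hepatocytic factor HNF4A (22.9 to 31.3 TPM) was present in every library, whereas albumin (ALB) reached at most 1.58 TPM and 6 of 11 hepatocytic markers had a mean of at least 1 TPM. Of 8 leukocyte markers CD68 (90 to 125 TPM) and LYZ (2.85 to 5.81 TPM), of 8 endothelial markers PECAM1 (3.63 to 5.64 TPM), and of 10 fibroblast and stellate cell markers LUM, ACTA2 (2.21 to 4.49 TPM) and COL3A1 had a mean of at least 1 TPM, whereas CD3E, CLEC14A and DES, 1 marker of each list, were at 0 in every library. Knockdown replicate 1 stood apart in several collagen and glycoprotein members, which are described last among the members.

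Of the 41 genes, 31 had a mean of at least 1 TPM and were tested, with limma on log2(TPM + 1) and p-values adjusted over all 13980 genes tested. Without regard to the replicate numbers, 0 members rose and 0 fell at an adjusted p under 0.05, where 0.250% of all genes tested rose and 0.629% fell. At an unadjusted p under 0.05, 6 members were higher and 7 lower, where 6.78% of all genes tested were higher and 19.4% lower. Limma-voom on the recovered reads called 3 members higher and 0 lower, where 1.40% of the genes tested by both methods were called higher and 1.92% lower. Deviations from the group means were shared by libraries of one replicate number, so a second limma fit compared them within pairs, called the replicate block below. With this block 12 members rose (9.94% of all genes tested did) and 8 fell (25.0% of all genes tested did). Of the members called, 60% were higher, against 28.4% of all genes called. Past a log2 fold change of 1 as well, 3 members rose, where 0.458% of all genes tested did, and 0 fell, where 0.751% did. The 3 were LOX, LAMB3 and COL1A1, a matrix enzyme, a laminin chain and a fibrillar collagen chain. In 7 members the 3 knockdown libraries all lay above the 3 control libraries (9.58% of all genes tested), in 5 they all lay below (22.3%), and in 19 the groups overlapped. The two-sided exact permutation test on a single gene gives p = 0.1 for each of these 12, the smallest p that 3 against 3 libraries can give.

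**Figure D1:**
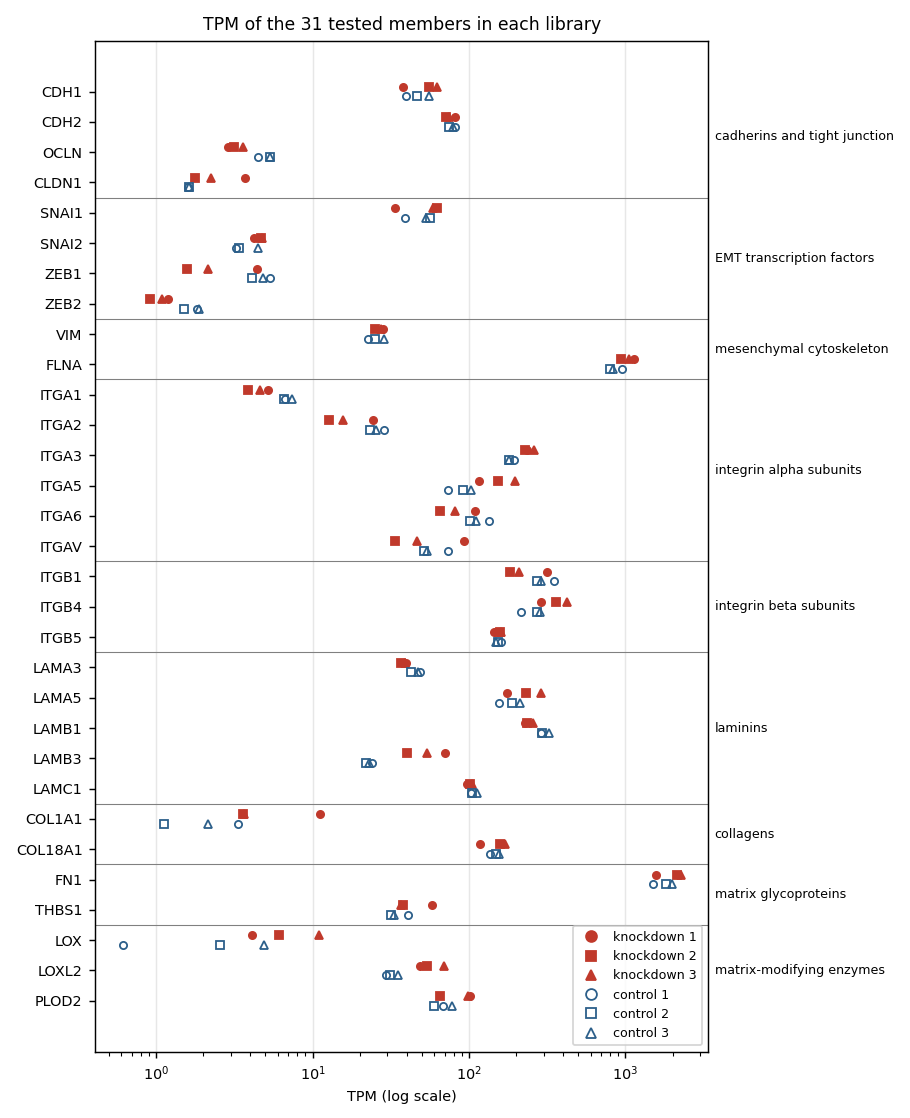
TPM (log scale) of the 31 tested genes in each of the 6 libraries, by role, with filled red symbols for knockdown and open blue symbols for control and the shape giving the replicate number. LAMB3, LOXL2, ITGA3, ITGA5, ITGB4, CLDN1 and COL1A1 had every knockdown symbol to the right of every control symbol, and OCLN, ZEB2, ITGA1, LAMA3 and LAMB1 had every one to the left.

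The fold changes followed the base composition of the transcripts. GC-rich members had the higher log2 fold changes (Spearman's rho 0.50 over 31 members), as GC-rich genes did in general (rho 0.64 over 13131 genes tested, all measured in the same 6 libraries). The 13 members below 45% GC had a median log2 fold change of -0.39 and 9 of them were below 0, beside -0.35 for the 4503 genes of that range. At 55% GC and above, the 10 members had a median of 0.42 and 0 were below 0, beside 0.09 for 4307 genes. Of the 13 AT-rich members, LOX, PLOD2, CLDN1 and SNAI2 were above 0. When the dependence on GC content was removed from every library by loess, with the replicate block, 14 members rose (11.7% of all genes tested) and 2 fell (12.9%), so that 87.5% of the members called were higher, against 47.6% of all genes called. The 14 comprised 11 of the 12 that rose before, without LAMA5, and CDH2, CLDN1 and SNAI2 in addition. Of the 8 that fell before, LAMA3 and LAMB1 were still called lower. With the trend along transcript length removed instead, again with the block, 14 rose (18.3%) and 2 fell (17.1%), the latter being ITGA6 and ITGB1. All 12 members that rose with the block were among these 14, and LAMA3 turned to 0.10. The rises of FLNA, ITGA3, ITGA5, ITGB4, LAMB3, COL1A1, FN1, THBS1, LOX, LOXL2 and PLOD2 thus passed all 3 of these fits, and no fall did. The median log2 fold change over the members was 0.08 as deposited and 0.15 with the GC-content trend removed, beside -0.08 and -0.00 over all genes tested.

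**Figure D2:**
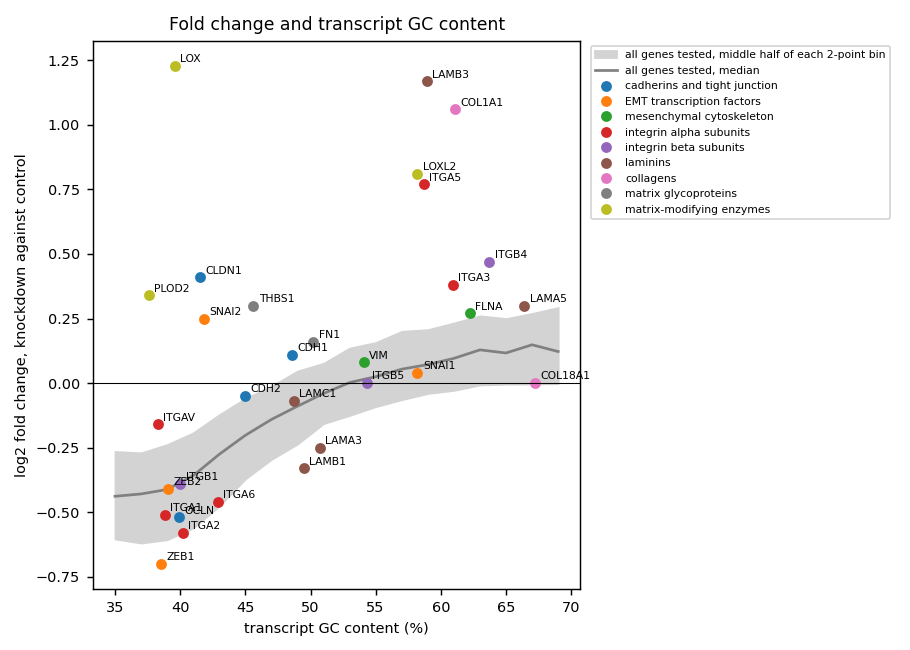
Log2 fold change of the 31 tested genes, knockdown against control without block or offset, against the GC content of the transcript in percent, coloured by role. The grey line and band give the median and the interquartile range of all genes tested in bins of GC content, and LOX (1.23) and PLOD2 (0.34) sit above that band at low GC content.

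**Figure D3:**
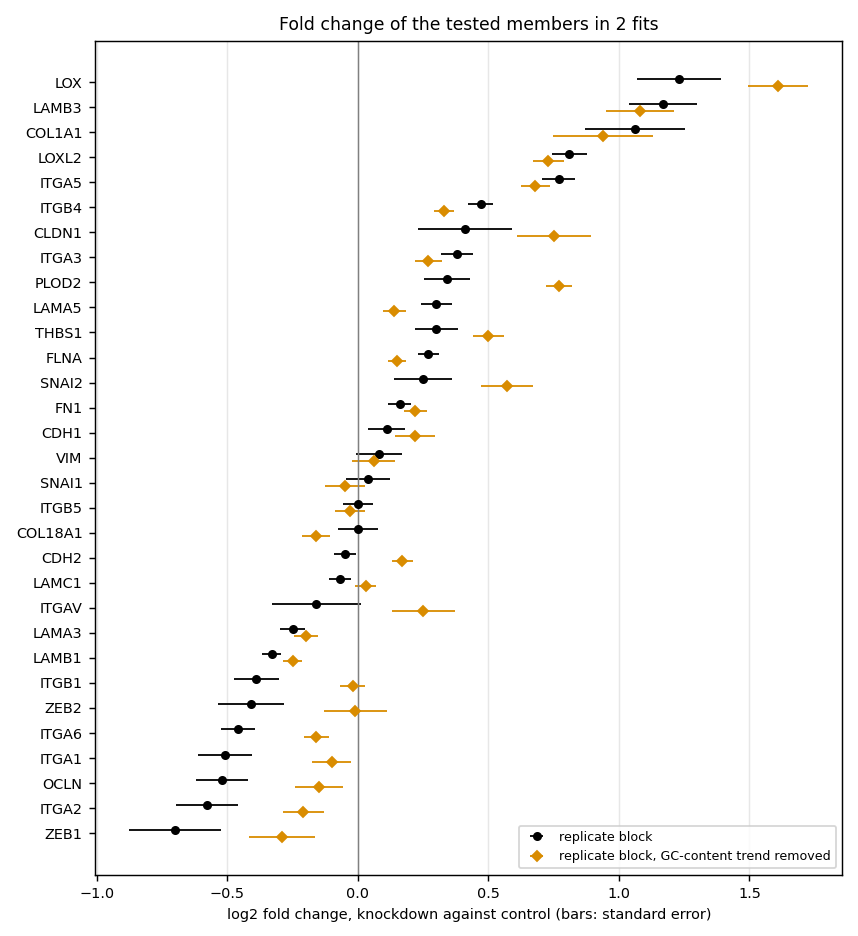
Log2 fold change of the 31 tested genes with its standard error, with the replicate block (black) and with the block after removal of the GC-content trend (orange). LOX, LAMB3, COL1A1, LOXL2 and ITGA5 stayed above 0.5 in both fits, whereas ITGB1 moved from -0.39 to -0.02 and ZEB2 from -0.41 to -0.01.

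The study examined miR-345-5p as a partner of cDCBLD2, so the members were searched for its seed. The mature sequence (RefSeq, GRCh38.p14, chr14:100307876-100307897, plus strand) is shown with its seed, bases 2 to 8, in capitals, followed by the stretches of those member transcripts (GENCODE release 29, GRCh38) that hold the complement GAGTCAG, in capitals, and that carry the larger changes described below.
hsa-miR-345-5p: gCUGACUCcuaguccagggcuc
LOX 3′ UTR: tcagagtttatGAGTCAGtttacaatatg
COL1A1 3′ UTR: ggttcggaggaGAGTCAGgaagggccacg
ITGA1 3′ UTR: ctgaagactcaGAGTCAGcctacctcttg
ITGA5 coding: acctcaggaacGAGTCAGaatttcgagac
ITGA6 coding: tgttatgtcctGAGTCAGaatctcaggat
ZEB1 coding: atgatgaatgcGAGTCAGatgcagaaaat
ITGB4 coding: tcttctccaccGAGTCAGccttccactat
The 7 bases lie at chr5:122064074-122064080 on the minus strand in LOX, at chr17:50184830-50184836 on the minus strand in COL1A1, at chr5:52953993-52953999 on the plus strand in ITGA1 and at chr12:54403315-54403321 on the minus strand in ITGA5. In ITGA6 they lie at chr2:172469208-172469214, in ZEB1 at chr10:31502365-31502371 and in ITGB4 at chr17:75730292-75730298, all on the plus strand, and ITGB4 holds a further coding match at chr17:75750133-75750139. Of these genes LOX, COL1A1, ITGA5 and ITGB4 had a log2 fold change above 0, and ITGA1, ITGA6 and ZEB1 had one below 0. In all, 6 of the 41 members (14.6%) held the match in the 3′ UTR. Of the 31 tested members 3 did, against 11.1% of 11786 coding genes tested. In the coding sequence it was present in 15 of the 41 members (36.6%). Of the tested members 11 had it there, against 12.7% of the coding genes tested. The shares over 41 members take in untested genes, so only the tested members compare like for like. The coding sequences of the members are long, with a median of 3219 bases over the members and 1335 bases over all genes tested. The 3 tested members with a match in the 3′ UTR had a median log2 fold change of 1.06 and the 28 without had 0.06, while all genes with and without such a match had -0.11 and -0.09. For the coding sequence the medians were 0.11 for 11 tested members with a match and 0.06 for 20 without, while all genes with and without such a match had -0.13 and -0.08.

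E-cadherin did not pass the test with or without the replicate block but did in other blocked fits, the tight junction gene OCLN fell with the replicate block, and CLDN1 was higher in every pair. CDH1, which encodes E-cadherin, the adhesion molecule of epithelial junctions, was at 37.7, 55.4 and 62.0 TPM after knockdown and at 39.6, 46.8 and 55.6 TPM in control cells. Its log2 fold change was 0.11 (SE 0.207, limma adjusted p = 0.769, or 0.289 with the block). With the block it was called higher by limma-voom (0.22, limma adjusted p = 0.0424), with the length trend removed (0.29, limma adjusted p = 0.0474) and without both replicate 1 libraries (0.20, limma adjusted p = 0.0351, or 0.33 with the GC-content trend removed, limma adjusted p = 0.0106), and it was -0.04 without knockdown replicate 3 and -0.01 without control replicate 1. CDH2, N-cadherin, the highest member of this group, was at 80.9, 71.7 and 74.8 TPM after knockdown and at 81.8, 74.7 and 78.8 TPM in control cells. Each knockdown library lay slightly below its same-numbered control and the groups overlapped. The CDH2 log2 fold change was -0.05 (SE 0.0743, limma adjusted p = 0.702), and it was 0.17 with the GC-content trend removed and the replicate block (limma adjusted p = 0.0331), so its sign depended on the correction. The TPM of CDH2 exceeded that of CDH1 in every library.

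OCLN, which encodes the tight junction protein occludin, was at 2.90, 3.16 and 3.61 TPM after knockdown and at 4.50, 5.38 and 5.33 TPM in control cells. All 3 knockdown libraries lay below the controls, with means of 3.22 ± 0.363 and 5.07 ± 0.493 TPM (SD, n = 3 each). The OCLN log2 fold change was -0.52 (SE 0.128, limma adjusted p = 0.0833, or 0.0145 with the block), and it was -0.15 once the GC-content trend was removed (limma adjusted p = 0.276 with the block). CLDN1, another tight junction strand protein, was at 3.68, 1.76 and 2.25 TPM after knockdown and at 1.59, 1.63 and 1.63 TPM in control cells, from 37 to 88 reads. Knockdown replicate 1 was the highest, and knockdown replicate 2 exceeded the controls narrowly. CLDN1 had a log2 fold change of 0.41 (SE 0.21, limma adjusted p = 0.264, or 0.135 with the block), which became 0.75 with the GC-content trend removed and the block (limma adjusted p = 0.0192) and 0.19 without knockdown replicate 1 (limma adjusted p = 0.353).

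Among the EMT transcription factors, ZEB1 fell with the replicate block, SNAI1 did not pass the test, and TWIST1 was near 0. ZEB1, a repressor of E-cadherin that acts in the nucleus, was at 4.43, 1.57 and 2.15 TPM after knockdown and at 5.33, 4.10 and 4.80 TPM in control cells. Knockdown replicate 1 lay within the control range, and replicates 2 and 3 lay well below it. The ZEB1 log2 fold change of -0.70 was the lowest of all tested members (SE 0.282, limma adjusted p = 0.181, or 0.0313 with the block). It was -1.01 without knockdown replicate 1 and -0.29 with the GC-content trend removed (limma adjusted p = 0.145 with the block), or -0.45 when both replicate 1 libraries were left out as well (limma adjusted p = 0.0405). ZEB2, its relative, was at 1.19, 0.909 and 1.09 TPM after knockdown and at 1.83, 1.5 and 1.87 TPM in control cells. All ZEB2 knockdown values lay below the controls, yet the log2 fold change of -0.41 missed the threshold (limma adjusted p = 0.133, or 0.0568 with the block) and became -0.01 with the GC-content trend removed.

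SNAI1, which encodes the repressor Snail, had the highest level of these factors, at 33.7, 62.2 and 59.1 TPM after knockdown and at 38.8, 55.9 and 52.9 TPM in control cells. Replicate 1 was the lowest in both groups. The SNAI1 log2 fold change was 0.04 (SE 0.258, limma adjusted p = 0.941, or 0.764 with the block), and it was -0.05 with the GC-content trend removed. SNAI2, which encodes Slug, was at 4.23, 4.67 and 4.72 TPM after knockdown and at 3.26, 3.37 and 4.47 TPM in control cells, higher in each pair but with overlap. Its log2 fold change was 0.25 (SE 0.139, limma adjusted p = 0.306, or 0.139 with the block), and 0.57 with the GC-content trend removed and the block (limma adjusted p = 0.0155). TWIST1, a further inducer of EMT, had 2, 0 and 0 recovered reads after knockdown and 0, 1 and 0 in control cells, where a count of 0 allows up to 3 reads.

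The cytoskeletal member FLNA rose with the replicate block, and vimentin did not pass the test. VIM, the intermediate filament of mesenchymal cells, was at 28.3, 25.0 and 27.2 TPM after knockdown and at 22.7, 24.9 and 28.5 TPM in control cells, with a log2 fold change of 0.08 (SE 0.105, limma adjusted p = 0.659, or 0.505 with the block). FLNA, filamin A, links actin filaments and integrin tails and was among the most abundant members, at 1125, 933 and 1053 TPM after knockdown and at 956, 792 and 827 TPM in control cells. Every knockdown library exceeded its same-numbered control, although knockdown replicate 2 lay under control replicate 1. The FLNA log2 fold change was 0.27 (SE 0.104, limma adjusted p = 0.164, or 0.009 with the block), and 0.15 with the GC-content trend removed and the block (limma adjusted p = 0.0311).

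The integrin alpha subunits moved in both directions: the fibronectin receptor subunit ITGA5 and the laminin receptor subunit ITGA3 rose with the replicate block, and ITGA1, ITGA2 and ITGA6 fell. ITGA5 was at 116, 153 and 197 TPM after knockdown and at 73.6, 91.1 and 103 TPM in control cells. All 3 knockdown values lay above the controls, with means of 155 ± 40.5 and 89.2 ± 14.8 TPM (SD, n = 3 each). The ITGA5 log2 fold change was 0.77 (SE 0.21, limma adjusted p = 0.0949, or 0.00436 with the block), with 0.65, 0.74 and 0.93 within pairs 1, 2 and 3. It was 0.68 with the GC-content trend removed and the block (limma adjusted p = 0.00447). ITGA3, the most abundant alpha subunit, was at 234, 229 and 261 TPM after knockdown and at 195, 180 and 179 TPM in control cells. Those groups did not overlap, and the log2 fold change was 0.38 (SE 0.0756, limma adjusted p = 0.0622, or 0.0102 with the block) or 0.27 with the GC-content trend removed and the block (limma adjusted p = 0.0181).

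ITGA2, a collagen receptor subunit, was at 24.2, 12.8 and 15.6 TPM after knockdown and at 28.8, 23.3 and 25.6 TPM in control cells. Knockdown replicate 1 lay within the control range and the others below it. The ITGA2 log2 fold change was -0.58 (SE 0.223, limma adjusted p = 0.168, or 0.0182 with the block). ITGA1, its collagen-binding relative, was at 5.16, 3.85 and 4.61 TPM after knockdown and at 6.66, 6.52 and 7.34 TPM in control cells, all below the controls, with a log2 fold change of -0.51 (SE 0.129, limma adjusted p = 0.0888, or 0.0181 with the block). ITGA6, a laminin receptor subunit and the partner of ITGB4 in hemidesmosomes, was at 109, 65.6 and 80.8 TPM after knockdown and at 135, 101 and 111 TPM in control cells. The groups of ITGA6 overlapped at knockdown replicate 1, and its log2 fold change was -0.46 (SE 0.198, limma adjusted p = 0.203, or 0.00812 with the block). With the GC-content trend removed and the block, ITGA2, ITGA1 and ITGA6 were at -0.21, -0.10 and -0.16 (limma adjusted p = 0.1, 0.337 and 0.0571). These 3 subunits are AT-rich, at 40.2%, 38.8% and 42.9% GC, whereas ITGA5 and ITGA3 are at 58.7% and 60.9%. ITGAV, the alpha subunit of vitronectin receptors, was at 92.5, 33.8 and 46.4 TPM after knockdown and at 72.9, 51.7 and 54.2 TPM in control cells, and its pairs disagreed in sign (0.34, -0.60 and -0.22).

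Of the beta subunits, ITGB4 rose and ITGB1 fell with the replicate block. ITGB4, the laminin receptor subunit of hemidesmosomes, was at 290, 357 and 422 TPM after knockdown and at 215, 270 and 286 TPM in control cells, without overlap. The ITGB4 log2 fold change was 0.47 (SE 0.165, limma adjusted p = 0.145, or 0.00481 with the block), and 0.33 with the GC-content trend removed and the block (limma adjusted p = 0.00738). The members of the ITGA6 and ITGB4 pair therefore had opposite signs in the block fit. ITGB1, the common partner of ITGA1, ITGA2, ITGA3 and ITGA5, was at 315, 183 and 209 TPM after knockdown and at 348, 273 and 287 TPM in control cells. Its log2 fold change of -0.39 (limma adjusted p = 0.279, or 0.0215 with the block) became -0.02 with the GC-content trend removed (limma adjusted p = 0.807 with the block), at a GC content of 40.0%. ITGB5, a partner of ITGAV, was at 145, 157 and 160 TPM after knockdown and at 160, 154 and 149 TPM in control cells, with a log2 fold change of -0.00 (SE 0.0674).

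LAMB3 showed the largest rise of the laminins, LAMA5 also rose with the replicate block, and LAMA3 and LAMB1 fell. LAMB3 encodes the beta chain of the laminin that anchors hemidesmosomes, whose alpha chain comes from LAMA3, and lies at chr1:209614870-209652466 on the minus strand (GENCODE release 29, GRCh38). Its TPM was 69.9, 39.9 and 53.6 after knockdown and 23.9, 22.1 and 23.0 in control cells. Every knockdown value exceeded the controls, which were nearly equal, and the means were 54.5 ± 15.0 and 23.0 ± 0.893 TPM (SD, n = 3 each). The LAMB3 log2 fold change was 1.17 (SE 0.192, limma adjusted p = 0.0533, or 0.00543 with the block), and 1.08 with the GC-content trend removed and the block (limma adjusted p = 0.0073). Left out in turn, single libraries moved it between 0.98 and 1.38.

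LAMA3, the alpha chain that pairs with LAMB3, had the opposite sign. It was at 39.7, 36.5 and 39.2 TPM after knockdown and at 48.4, 42.8 and 47.1 TPM in control cells, all lower. Its log2 fold change of -0.25 (SE 0.0788, limma adjusted p = 0.118, or 0.0145 with the block) was -0.20 with the GC-content trend removed and the block (limma adjusted p = 0.0286) and turned to 0.10 with the transcript-length trend removed. In level, knockdown libraries thus held more TPM of LAMB3 than of LAMA3 in each pair, and control libraries held less.

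SNAI and ZEB factors are known to bind the E-box CAGGTG, so the 250 bases before the RefSeq start of each gene with a promoter sequence were searched for it on both strands. It was found in 7 of the 32 members with a promoter sequence (21.9%), namely ITGA6, ITGB6, LAMA3, LAMA5, LAMB3, OCLN and ZEB1, and in 17.5% of 27305 promoters. CDH1, SNAI1, SNAI2, TWIST1, ITGA3, ITGB3, ITGB4, COL1A1 and LOXL2 had no promoter sequence here and were not searched. The AP-1 motif TGANTCA was found in LAMA3 alone of the 32 (3.12%, against 6.6%), and the GC box GGGCGG in 26 (81.2%, against 42.3%). The motifs were searched separately, so that matches may share letters. The 27305 promoters were not limited to genes expressed here or matched in base composition, so these shares are no like-for-like comparison. Some windows lie inside the GENCODE gene, LAMA3 among them (window chr18:23872770-23873019, gene from 23689443), as do those of ITGB1, PLOD2 and COL4A2. The LAMB3 stretch is shown because LAMB3 rose most among the laminins (RefSeq, GRCh38.p14, chr1:209652467-209652675, minus strand, with the E-box in capitals), without the 41 bases that a GENCODE transcript already covers.
LAMB3 upstream: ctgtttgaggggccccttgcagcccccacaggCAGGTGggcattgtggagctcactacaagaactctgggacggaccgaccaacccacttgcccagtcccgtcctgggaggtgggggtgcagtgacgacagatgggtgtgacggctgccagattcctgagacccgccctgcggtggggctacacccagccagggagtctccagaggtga
The match begins 218 bases before the start and describes letters only.

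LAMB1, the beta chain of the common basement membrane laminins and the most abundant laminin here, was at 227, 234 and 255 TPM after knockdown and at 287, 293 and 323 TPM in control cells. The groups did not overlap and the pairs agreed closely (-0.34, -0.32 and -0.34). The LAMB1 log2 fold change was -0.33 (SE 0.0768, limma adjusted p = 0.0758, or 0.00528 with the block), -0.25 with the GC-content trend removed and the block (limma adjusted p = 0.0101), and -0.11 with the length trend removed and the block (limma adjusted p = 0.124). LAMA5, an alpha chain of mature basement membranes, was at 176, 230 and 287 TPM after knockdown and at 155, 189 and 211 TPM in control cells. It was higher in each pair with overlap between groups, and its log2 fold change was 0.30 (SE 0.197, limma adjusted p = 0.367, or 0.0159 with the block), or 0.14 with the GC-content trend removed and the block (limma adjusted p = 0.0578). LAMC1, the common gamma chain, was at 97.3 to 105 TPM after knockdown and at 103 to 113 TPM in control cells, with a log2 fold change of -0.07 that was 0.03 and 0.22 with the GC-content and length trends removed.

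COL1A1 rose with the replicate block among the collagens, and COL18A1, the most abundant, did not pass the test. COL1A1 encodes the main chain of type I collagen and lies at chr17:50183289-50201632 on the minus strand. It was at 11.2, 3.61 and 3.64 TPM after knockdown and at 3.35, 1.13 and 2.15 TPM in control cells, from 54 to 463 recovered reads. Replicate 1 was the highest in both groups, and knockdown replicates 2 and 3 exceeded control replicate 1 narrowly. The COL1A1 log2 fold change was 1.06 (SE 0.446, limma adjusted p = 0.196, or 0.0132 with the block), and 0.94 with the GC-content trend removed and the block (limma adjusted p = 0.0228). Without knockdown replicate 1 it was 0.59 (limma adjusted p = 0.192), and with both replicate 1 libraries left out and the block it was 0.84 (limma adjusted p = 0.0249). COL18A1, the basement membrane collagen from which endostatin is cut, was at 118, 157 and 170 TPM after knockdown and at 137, 149 and 155 TPM in control cells, with a log2 fold change of 0.00 (SE 0.14, limma adjusted p = 0.999).

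Both matrix glycoproteins that could be tested rose with the replicate block, where 9.94% of all genes tested did. FN1, fibronectin, the ligand of ITGA5 with ITGB1, had the highest level of all 41 members, at 1575, 2126 and 2249 TPM after knockdown and at 1492, 1828 and 1978 TPM in control cells. Replicate 1 was the lowest in both groups, each knockdown library exceeded its same-numbered control, and the groups overlapped. The FN1 log2 fold change was small at 0.16 (SE 0.167, limma adjusted p = 0.572, or 0.0393 with the block), and 0.22 with the GC-content trend removed and the block (limma adjusted p = 0.0223). Without control replicate 1 it was 0.04, and without knockdown replicate 1 it was 0.32. THBS1, thrombospondin 1, an adhesive glycoprotein that activates TGF-beta, was at 58.4, 38.1 and 36.7 TPM after knockdown and at 40.6, 31.9 and 33.1 TPM in control cells. Its log2 fold change was 0.30 (SE 0.194, limma adjusted p = 0.361, or 0.0384 with the block), 0.50 with the GC-content trend removed and the block (limma adjusted p = 0.00749), and 0.09 without knockdown replicate 1.

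All 3 matrix-modifying enzymes rose with the replicate block, where 9.94% of all genes tested did. LOX, lysyl oxidase, which oxidises lysines of collagen and elastin for cross-linking, lies at chr5:122063195-122078360 on the minus strand. It was at 4.11, 6.09 and 11 TPM after knockdown and at 0.616, 2.56 and 4.88 TPM in control cells, from 22 to 512 recovered reads. In both groups replicate 1 was the lowest and replicate 3 the highest, and the groups overlapped, whereas within each pair LOX was higher after knockdown (1.66, 0.99 and 1.03 on the log2 scale). The LOX log2 fold change of 1.23 was the highest of the tested members (SE 0.519, limma adjusted p = 0.195, or 0.00694 with the block), and it was 1.61 with the GC-content trend removed and the block (limma adjusted p = 0.00383). Without control replicate 1 it was 0.73 and without knockdown replicate 3 it was 0.90, both under the log2 fold change of 1, and without both replicate 1 libraries it was 1.01 with the block (limma adjusted p = 0.0048).

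LOXL2, a relative of LOX that is secreted and also acts on collagen, was at 48.6, 53.5 and 69.5 TPM after knockdown and at 29.4, 31.2 and 34.9 TPM in control cells. Its groups were well apart, with means of 57.2 ± 10.9 and 31.8 ± 2.80 TPM (SD, n = 3 each). The LOXL2 log2 fold change was 0.81 (SE 0.144, limma adjusted p = 0.0545, or 0.00436 with the block), and 0.73 with the GC-content trend removed and the block (limma adjusted p = 0.00456). PLOD2, the lysyl hydroxylase of collagen telopeptides, was the most abundant of the 3, at 101, 64.8 and 98.8 TPM after knockdown and at 67.9, 59.4 and 78.1 TPM in control cells. Its groups overlapped and its log2 fold change was 0.34 (SE 0.192, limma adjusted p = 0.302, or 0.033 with the block). At 37.6% GC it was the most AT-rich tested member, and with the GC-content trend removed and the block it was at 0.77 (limma adjusted p = 0.00348).

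The 10 members under a mean of 1 TPM were not tested by limma on TPM: TWIST1, ITGB3, ITGB6, ITGB8, COL4A1, COL4A2, COL5A1, COL12A1, SPARC and TNC. Knockdown replicate 1 held most of the reads of several. TNC, tenascin C, a glycoprotein of wound and tumour matrix, had 104, 14 and 15 recovered reads after knockdown and 11, 10 and 12 in control cells. Limma-voom on recovered reads covered TNC, ITGB3, ITGB6, ITGB8, COL4A2 and SPARC and, with the block, called TNC higher (1.79, limma adjusted p = 0.0303), the only call among the 6, in which knockdown replicate 1 held the 104 reads. COL5A1, a collagen of thin fibrils, had 43, 3 and 2 reads after knockdown and 0, 2 and 6 in control cells. COL12A1, a collagen that decorates fibrils, had 23, 0 and 0 reads after knockdown and 2, 1 and 0 in control cells. SPARC, a collagen-binding glycoprotein, had 58, 14 and 17 reads after knockdown and 21, 19 and 25 in control cells, so its other knockdown libraries lay below the controls. Of 39 members with at least 10 reads in knockdown replicate 1, 5 exceeded 2 times the next library there (these 4 and COL1A1), against 107 of 14647 genes (0.731%). The 10 fibroblast and stellate cell markers summed to 68.1 TPM in that library and to between 33.7 and 44.3 TPM in the other 5, and LUM, at 59.1 TPM there and 26.7 to 39.6 TPM elsewhere, made up most of it. Of the other markers of these cells, COL3A1 was also highest in that library, at 3.36 TPM and 0.476 to 1.96 TPM elsewhere. So were PDGFRA (0.375 TPM, at most 0.316 elsewhere), PDGFRB (0.314, at most 0.102), DCN (0.287, at most 0.195) and THY1 (0.128, at most 0.0443). These low markers had 5 to 21 reads there. ACTA2 (3.59 TPM, 2.21 to 4.49 elsewhere), RGS5 (0.304, 0.194 to 0.5) and LRAT (0.711, 0.564 to 1.14) were not highest there, and DES was at 0 throughout. The part of these markers in the members' values was not tested, and fewer cells of a type and less RNA per cell cannot be told apart in such libraries. With both replicate 1 libraries left out and the block, 12 members rose (11.3% of all genes tested) and 9 fell (28.0%), which included 11 of the 12 and all 8 of the earlier calls. PLOD2 missed the threshold there (limma adjusted p = 0.0513).

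**Figure D4:**
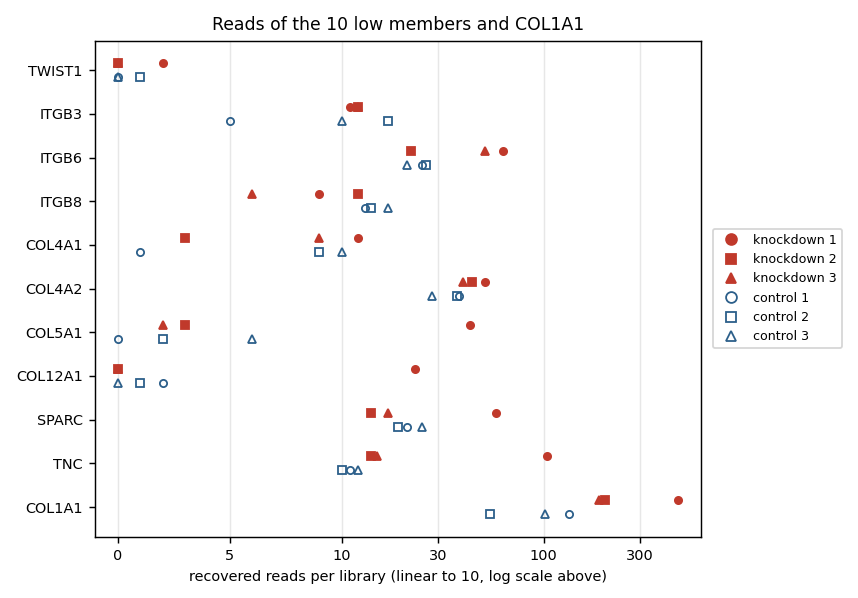
Recovered reads (axis linear to 10 and logarithmic above) of the 10 untested genes and COL1A1 in each of the 6 libraries, filled red for knockdown and open blue for control. Knockdown replicate 1 lies far to the right in TNC (104 reads), SPARC (58), COL5A1 (43) and COL12A1 (23), while the groups of ITGB3 and COL4A1 overlap.

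The remaining low members had few reads in every library. ITGB6, an epithelial partner of ITGAV, had 63, 22 and 51 reads after knockdown and 25, 26 and 21 in control cells. ITGB8, a further partner of ITGAV, had 9, 12 and 6 reads after knockdown and 13, 14 and 17 in control cells, and ITGB3, the beta subunit of the platelet fibrinogen receptor, had between 5 and 17. The type IV collagen chains of the basement membrane were low, COL4A1 with 1 to 12 and COL4A2 with 28 to 51 reads. At these depths differences in ITGB3 and COL4A1 were not detectable.

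Other genes of the same pathways were counted in lists drawn up by function, with earlier results of these data known. Over 7 lists, 109 of 151 genes were tested, of which 1 rose and 1 fell without the block, 44 rose and 12 fell with it, and 37 rose and 7 fell with the GC-content trend removed and the block. Of all genes tested, 0.250% rose and 0.629% fell without the block, 9.94% and 25.0% with it, and 11.7% and 12.9% with both. The median log2 fold change of the 109 genes was 0.15, beside -0.08 over all genes tested. The gene that rose without the block was TINAGL1 and the one that fell was PTK2, the focal adhesion kinase, at 29.8, 29.8 and 28.3 TPM after knockdown and 41, 40.6 and 42 TPM in control cells (log2 fold change -0.48, limma adjusted p = 0.0451), which was named after its values were seen.

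Of 13 other integrin subunits 7 were tested, and ITGB2, a leukocyte integrin subunit, rose with the block (0.48, limma adjusted p = 0.0318). In the list of 14 other basement membrane genes 7 were tested, of which 4 rose (9.94% of all genes tested) and 1 fell (25.0%) with the block. LAMB2, a laminin beta chain, rose (0.46, limma adjusted p = 0.00669), and nidogen 1, NID1, which links laminin to type IV collagen, fell (-0.41, limma adjusted p = 0.0245). The 19 other collagens included 11 tested genes, of which 6 rose (9.94% of all genes tested) and 0 fell (25.0%) with the block. With the GC-content trend removed as well, 5 rose (11.7%) and 1 fell (12.9%). COL3A1, the fibrillar partner of type I collagen and also 1 of the 10 fibroblast and stellate cell markers, was at 3.36, 1.78 and 1.96 TPM after knockdown and at 0.783, 0.476 and 0.546 TPM in control cells, without overlap (log2 fold change 1.05, limma adjusted p = 0.0635, or 0.00787 with the block). COL17A1, the transmembrane collagen of hemidesmosomes, was at 0.41 (limma adjusted p = 0.00674 with the block). At an unadjusted p under 0.05, 6 of these collagens were higher (6.78% of all genes tested) and 0 lower (19.4%) without the block, and limma-voom with the block called 7 of the 11 higher (19.0% of the genes tested by both methods) and 0 lower (22.2%).

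Collagen-modifying genes other than LOX, LOXL2 and PLOD2 numbered 19, with 17 tested. With the replicate block 8 rose (9.94% of all genes tested) and 0 fell (25.0%), and 8 rose (11.7%) and 1 fell (12.9%) with the GC-content trend removed as well. LOXL4, a lysyl oxidase relative, was at 0.59 (limma adjusted p = 0.0283 with the block), and PCOLCE, which enhances procollagen cleavage, was at 0.56 (limma adjusted p = 0.0179 with the block). Without the block 6 of this list were higher (6.78% of all genes tested) and 0 lower (19.4%) at an unadjusted p under 0.05, and limma-voom with the block called 10 of the 17 higher (19.0%) and 0 lower (22.2%). The adaptors that tie integrins to actin numbered 29, of which 27 were tested. With the block 9 rose (9.94% of all genes tested) and 6 fell (25.0%), and 5 rose (11.7%) and 2 fell (12.9%) with the GC-content trend removed as well. The tensin TNS2 rose (0.40, limma adjusted p = 0.013 with the block). The focal adhesion proteins LPP (-0.61, limma adjusted p = 0.0427) and FERMT2 (-0.49, limma adjusted p = 0.00997) fell with the block, and both missed the threshold with the GC-content trend removed (limma adjusted p = 0.228 and 0.0929).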

How the data were processed

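RNA of 3 knockdown and 3 control libraries was sequenced after a NEBNext Ultra RNA preparation. The authors deposited TPM values per gene, in which each library sums to 1000000. The submitters' processing notes name fastp 0.20.1, HISAT2 2.1.0, StringTie 2.0 and hg38, and the study's text names DESeq2. Annotation, strand and multimapping settings are not given in the sources used here, so values of overlapping genes and of close paralogs are uncertain.

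Genes whose mean over the 6 libraries reached 1 TPM were tested with limma 3.58.1 (R 4.3.3, mean-variance trend) on log2(TPM + 1), which understates the changes of low genes, with Benjamini-Hochberg adjustment at 0.05. Reads were recovered from whole-number ratios of each gene's TPM (within 0.01 reads for 100.00% of the 17285 genes above 0 in all libraries) with Python 3.11.15, numpy 2.4.6, pandas 2.3.3 and numba 0.67.0. Such reads cover counting error only. The recovery and the fit were tested on simulated data. Plots were drawn with matplotlib 3.10.9.

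Replicate numbers came from the labels, which do not say what they stand for or whether the libraries are separate cultures, so p-values measure the spread between these libraries. Deviations from the group means correlated at 0.560, 0.343 and 0.362 for replicates 1, 2 and 3, and the replicate number was therefore used as a block in a second fit.

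GC content and length came from GENCODE release 29, in which 25596 genes matched by symbol, 1558 by another name and 11483 not, with a GC content for 93.9% of the genes tested and all 41 members. Trends were removed per library by loess with a span of 0.5. Limma-voom used genes with at least 10 recovered reads in 3 libraries.

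The members and the other lists were chosen with earlier results of these data known. Named in full are the 5 tested members with the highest and the 5 with the lowest log2 fold change, those called without the block, and the most abundant tested member of each role. Of each other list, the 2 highest and the 2 lowest genes called with the block are named, apart from some items that are not reported here. Further alternatives were upper-quartile scaling, no filter, 0.1 as pseudocount and the removal of each library in turn.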

Additional observations from a re-analysis of the deposited data

How the results depend on the processing

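Without a block 0 members rose and 0 fell, and the other lists gave 1 higher and 1 lower. The counts of members, higher and lower, were 12 and 8 with the replicate block, 14 and 2 with the GC-content offset and block, 14 and 2 with the transcript-length offset and block, and 15 (with TNC, which limma on TPM left untested) and 9 with limma-voom on recovered reads and block. The shares of all genes tested were 9.94% and 25.0%, 11.7% and 12.9%, and 18.3% and 17.1%. For limma-voom with the block they were 19.0% and 22.2% of the genes tested by both methods. Without a block the counts of members were 1 and 0 with upper-quartile scaling, 4 and 0 with the length offset and 3 and 0 with limma-voom. Limma-voom without the block called 1.40% of the genes tested by both methods higher and 1.92% lower. For upper-quartile scaling and the length offset the shares of all genes were not counted. Their counts, also those of the other lists below, therefore have no general rate beside them. Single libraries left out gave 0 to 5 higher and 0 to 7 lower. The counts above 0 came without knockdown replicate 1, where 649 of the 13980 genes tested were higher and 2771 lower. With both replicate 1 libraries left out, an alternative chosen after seeing the data, the block gave 12 and 9, and the GC-content offset and block gave 16 and 4. Of all genes tested, 11.3% and 28.0% were called there with the block. With the offset as well, 1620 of 13131 genes were called higher and 1630 lower. In the same order, the other lists gave 44 and 12, 37 and 7, 61 and 6, and 58 and 10 with the block, 2 and 0 with upper-quartile scaling, 13 and 0 with the length offset, 14 higher with limma-voom, 0 and 0 without a filter and with the GC-content offset alone, 0 to 22 and 0 to 10 with single libraries left out, and 45 and 15, then 34 and 8, without replicate 1. The limma-voom counts take in genes that limma on TPM left untested, and 54 of the 58 were among the 109 tested.

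The median over members, 0.08, was 0.15 with upper-quartile scaling and with the GC-content offset (with and without the block, and in both fits without replicate 1), 0.25 with the length offset, 0.21 with limma-voom and 0.22 with its block, and -0.03 to 0.16 with single libraries left out. The lowest value came without knockdown replicate 3. DCBLD2 (-0.61, limma adjusted p = 0.253) passed the threshold with the replicate block (-0.61), the block and GC-content offset (-0.29) or length offset (-0.38), limma-voom with block (-0.52), without replicate 1 (-0.77, and -0.38 with the offset) and without knockdown replicate 1 (-0.95), the single libraries giving -0.95 to -0.38.

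Of 558 member values in 18 other fits, 377 kept their side of zero and of the threshold in the first limma fit. A further 133 newly passed the threshold and 48 changed sign, in 10 members. No call could be lost, because 0 members were called in that first fit. Calls of the fit with the replicate block were lost in other fits, as given above. CDH2 was at 0.02 with upper-quartile scaling, 0.17 with the GC-content offset, 0.10 with the length offset, 0.05 with limma-voom and 0.20 with the GC-content offset without replicate 1. SNAI1 was at -0.05 with the GC-content offset. ITGAV was at 0.25 with the GC-content offset, 0.10 with the length offset and 0.08 with the GC-content offset without replicate 1. ITGB5 was at 0.07, 0.15, 0.09 and 0.10 with upper-quartile scaling, the length offset, limma-voom and its block, and at 0.07 and 0.04 without replicate 1. LAMA3 was at 0.10 with the length offset. LAMC1 was at 0.03 and 0.22 with the GC-content and length offsets, 0.02 with limma-voom and 0.05 with the GC-content offset without replicate 1. COL18A1 was at -0.16 with the GC-content offset and -0.10 without replicate 1. Without replicate 1, ZEB2 was at 0.05 with the GC-content offset and VIM at -0.03 and -0.06. With single libraries left out, CDH1 ranged from -0.04 to 0.32, SNAI1 from -0.12 to 0.31, ITGAV from -0.56 to 0.15, ITGB5 from -0.03 to 0.04 and COL18A1 from -0.11 to 0.15. Members called with the block that moved by over 1.5 times were ITGA6 (-0.65 to -0.29), ITGB1 (-0.62 to -0.23), LAMA5 (0.13 to 0.48), COL1A1 (0.59 to 1.30), FN1 (0.04 to 0.32), THBS1 (0.09 to 0.42), LOX (0.73 to 1.66) and PLOD2 (0.23 to 0.55). Among the genes of the other lists that are named in the text, ITGB2 (0.25 to 0.78), LAMB2 (0.27 to 0.64), PCOLCE (0.32 to 0.94), TJP3 (0.05 to 1.03), CCN1 (0.19 to 0.76) and LPP (-0.85 to -0.40) did. Further called genes of these lists also moved by over 1.5 times, for example CLDN7 (0.10 to 0.88), EFEMP2 (0.09 to 0.68) and DSG2 (-0.56 to -0.21). The other 21 members kept their direction in all 18 fits, and the causes were not tested. The offset fits covered 13131 genes, and 3 libraries a group and as few as 22 reads in LOX limit what could be detected.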

Other observations

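Junction and glycoprotein genes beyond the members are described here. Among 31 other epithelial junction genes 25 were tested, and with the replicate block 10 rose (9.94% of all genes tested) and 5 fell (25.0%). With the GC-content trend removed as well, 9 rose (11.7%) and 2 fell (12.9%). Without the block 0 were called by limma in either direction, with 6 higher and 4 lower at an unadjusted p under 0.05, where 6.78% of all genes tested were higher and 19.4% lower. CGN, cingulin, a cytoplasmic plaque protein of tight junctions, was at 69.7, 75.1 and 82.6 TPM after knockdown and at 46.4, 54.2 and 56.5 TPM in control cells, without overlap (log2 fold change 0.53, limma adjusted p = 0.00444 with the block, and 0.47 with limma adjusted p = 0.00544 after the GC-content correction). TJP3, another scaffold of tight junctions, was at 8.43, 20.6 and 25.4 TPM after knockdown and at 4.61, 15.9 and 15.9 TPM in control cells, higher in each pair with overlap (0.58, limma adjusted p = 0.53, or 0.0105 with the block), and single libraries left out moved it between 0.05 and 1.03. TJP1, the scaffold ZO-1, went the other way, at 22.4, 14.1 and 13.4 TPM after knockdown and at 32.6, 25.9 and 27.7 TPM in control cells (-0.78, limma adjusted p = 0.00669 with the block, and -0.56 with limma adjusted p = 0.00917 after the correction). CLDN12, a claudin, was at -0.55 (limma adjusted p = 0.016 with the block) and at -0.14 after the correction (limma adjusted p = 0.187). Plaque and scaffold genes of the same tight junction thus differed in sign, as OCLN and CLDN1 did among the members. CLDN1 was not called with the block, however, and OCLN was not called after the correction. CGN and TJP3 are at 56.1% and 63.2% GC, and TJP1 and CLDN12 at 44.8% and 38.1%.

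Of 26 other matrix glycoproteins 15 were tested, and 6 rose (9.94% of all genes tested) and 0 fell (25.0%) with the block. The counts were the same after the GC-content correction (11.7% and 12.9%). At an unadjusted p under 0.05 without the block, 4 were higher (6.78%) and 0 lower (19.4%). TINAGL1, a secreted glycoprotein of basement membranes, was at 87.7, 95.3 and 98.7 TPM after knockdown and at 56.6, 66.6 and 62.7 TPM in control cells, without overlap. It passed limma without the block (log2 fold change 0.59, adjusted p = 0.0451, and 0.00436 with the block) and was at 0.47 after the correction (limma adjusted p = 0.00564 with the block). CCN1, a matricellular ligand of integrins, was at 28.7, 14.6 and 12.5 TPM after knockdown and at 16.6, 10.2 and 9.59 TPM in control cells, higher in each pair (0.53, limma adjusted p = 0.0131 with the block), and its log2 fold change was 0.19 without knockdown replicate 1.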
